A study of Camellia sinensis with 6 samples.

Results

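Cytokinins are adenine-derived hormones that keep leaves green, promote chloroplast development and delay senescence in many plants. Their signal runs along a phosphorelay of the two-component type. Membrane histidine kinases bind the hormone, histidine-containing phosphotransfer proteins (AHPs) carry the phosphate to the nucleus, and type-B response regulators there switch on target genes, among them the type-A response regulators that dampen the signal. Isopentenyltransferases (IPTs) make the hormone precursor, a cytochrome P450 hydroxylates it, LONELY GUY (LOG) enzymes release the active base, and cytokinin dehydrogenases (CKXs) destroy it. These roles are known mainly from Arabidopsis and rice.

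The genes of this pathway were examined in leaves of ‘Huangjinya’, a tea cultivar with yellow leaves in strong light and green leaves in shade. Members were the unigenes, i.e., transcripts assembled from the reads, whose best match in the Nr protein database named cytokinin, a histidine kinase, a histidine-containing phosphotransfer protein, a response regulator of the two-component type or an adenylate isopentenyltransferase. Phytochromes, ethylene receptors and clock pseudo-response regulators were dropped by their names. The rule found 104 of 127252 unigenes, of which 64 were contigs of 21 clusters of similar transcripts and 40 stood alone. The members counted 5 for synthesis, 8 for activation, 1 for hydroxylation, 5 for breakdown, 1 for conjugation, 30 histidine kinases, 23 phosphotransfer proteins, 28 response regulators and 3 contigs named cytokinin-regulated kinase 1.

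The third leaf below the shoot tip was taken from 2-year-old plants of 1 field. Y was the group in sunlight, and Y+S stood for 10 days under a net that removed 45% of the light. Both groups were of the same cultivar, with no other agent, and each had 3 libraries, for which the sources used here do not say how many plants each one held. P-values therefore measure the spread between these libraries.

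The annotation of some members was uncertain. Swiss-Prot, a curated protein database, gave another protein for 11 members and no match for 13. The IPT7-like pair CL7831.Contig1 and CL7831.Contig2 and the 3 ARR2 contigs of CL1913 matched PHR1-LIKE 1, a phosphate starvation regulator. CL1820.Contig3 (ARR2-like) matched a glycerophosphodiester phosphodiesterase, Unigene9101 (ARR2-like) matched the homeobox factor HB29, and Unigene73843, the only cytokinin glucosyltransferase, matched UGT85A5. The kinase-named contigs CL6745.Contig2 and Unigene25320 matched response regulators. The 3 contigs of CL10119 were PRR37-like or PRR73-like, i.e., clock components of the kind that the rule meant to drop, but whose names do not hold the dropped words.

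The libraries held 10022397 (Y3) to 18742989 (Y+S1) counted fragments, and the members took 447 (Y+S3) to 895 (Y+S2) CPM, i.e., counts scaled to a common library total. The study left out Y1 and Y+S3 because they stood apart in its principal component analysis, so the comparison was made first without these libraries, over the remaining 4, and then over 6. Y1 and Y+S3 also gave the smallest share of counts to long unigenes, with 5.54% and 4.77% on those of at least 3000 nt against 6.77% to 9.41% in the other libraries. The table's key was followed for the names of its columns, although the sample descriptions carry other codes, and the code of the Y1 column stands there with Y3 and that of the Y+S3 column with Y+S1. Leaf mesophyll markers (46 unigenes, all detected) took 1.21% to 1.69% of counts in Y and 0.955% (Y+S3) to 2.81% (Y+S1) in Y+S, markers of dividing cells (80 unigenes) 0.0969% to 0.110% in Y and 0.0835% to 0.112% in Y+S, and phloem markers (7 unigenes) 0.0427% to 0.0702% in Y and 0.0498% to 0.143% in Y+S. The xylem list (16 unigenes) stayed at 0.00331% to 0.00728%, and no unigene had its best match in the listed fungi or in the listed mites and insects. The part of these differences in the results below was not tested, and in whole leaves a change in cell makeup and a change in RNA per cell cannot be told apart.

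Levels are given as normalized FPKM, i.e., CPM scaled by TMM factors over the 6 libraries and divided by the length of the unigene in kb, which makes them comparable between unigenes and libraries. Fold changes are log2 of Y+S over Y, ± the standard error, from the quasi-likelihood test of edgeR over all unigenes.

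No member was called at an adjusted p of 0.05 in either comparison. Over the 4 libraries, 71 of 104 members had enough counts to be tested and 0 were called, where 0.0529% of all 64281 tested unigenes were. The lowest adjusted p of a member was 0.114. At an unadjusted p under 0.05, 13 members were higher in Y+S and 5 were lower, i.e., 18.3% and 7.04% of the members tested, against 7.23% and 7.69% of all unigenes and 14.9% in both directions together. The median log2 fold change was 0.21 over the members and 0.03 over all unigenes, with 62.0% of the members and 51.9% of all unigenes above 0. Over the 6 libraries, 0 of 68 members and 0% of 59300 unigenes were called, and 7 members were higher and 4 lower at an unadjusted p under 0.05, or 10.3% and 5.88% against 4.39% and 3.67% of all unigenes and 8.06% in both directions.

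The 13 and 5 members were not all separate loci, and 4 of the 13 passed the filter on low counts only through the shaded libraries. These were Unigene53950, Unigene34909, CL13342.Contig2 and Unigene77952, and no member passed only through the sunlit ones. With the counts of all contigs of a cluster summed, a choice made after seeing the data, 8 of 47 loci with members were higher and 6 lower over the 4 libraries at an unadjusted p under 0.05, or 17% and 12.8% against 7.17% and 7.67% of all loci and 14.8% in both directions. Across all 6 libraries it was 4 higher and 4 lower of 44, or 9.09% each against 4.48% and 3.59% of all loci and 8.07% in both directions. None of these loci was called.

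Other tools gave few calls. DESeq2 called 2 members over the 4 libraries, the response regulators CL1820.Contig3 and CL6745.Contig3, both higher in Y+S, where it called 1.59% of all unigenes, and 1 member over the 6, CL13342.Contig2, where it called 0.966%. The likelihood ratio test of edgeR called 6 (5 higher, 1 lower) and 2, where it called 3.35% and 0.884% of all unigenes. limma on log2 of FPKM called 0 members in both comparisons. With no filter on low counts 1 member was called over the 4 libraries, against 0.757% of all. Without Y+S1, 6 members were called and without Y+S2, 10, where 5.03% and 9.55% of all unigenes were called, and the spread then came from the sunlit pair alone. Those without Y+S1 were CL6745.Contig2, CL13342.Contig1, CL13342.Contig2, CL11229.Contig2, CL11229.Contig3 and CL4619.Contig3. Those without Y+S2 were CL6745.Contig2, CL6745.Contig3, CL13342.Contig2, CL1820.Contig3, CL10119.Contig3, Unigene8007, Unigene28179, Unigene39998, Unigene56324 and Unigene57017. Over the alternatives of the 4-library comparison, the adjusted p ran from 1.80e-06 to 0.608 for CL13342.Contig2, from 4.51e-07 to 0.834 for CL6745.Contig3, from 0.000348 to 0.862 for CL1820.Contig3 and from 0.00606 to 0.812 for CL6745.Contig2. It ran from 0.000302 to 0.828 for Unigene57017, from 0.00519 to 0.829 for Unigene53950, from 5.87e-07 to 0.950 for Unigene56324, from 4.02e-05 to 0.891 for Unigene28179, from 0.0311 to 0.889 for Unigene8007 and from 0.0225 to 0.952 for CL11229.Contig3.

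Counted by library over all 6, the groups did not overlap for 16 of the 68 members, 8 higher in Y+S and 8 lower. This was 23.5% of the members, against 14% of all unigenes (6.67% higher, 7.28% lower). On the deposited FPKM it was 10 members, 4 higher and 6 lower, or 5.88% and 8.82% against 4.07% and 7.83% of all unigenes and 11.9% in both directions. The plot of fitted fold changes shows the 70 tested members with counts in both groups in the order of their roles.

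**Figure D1:**
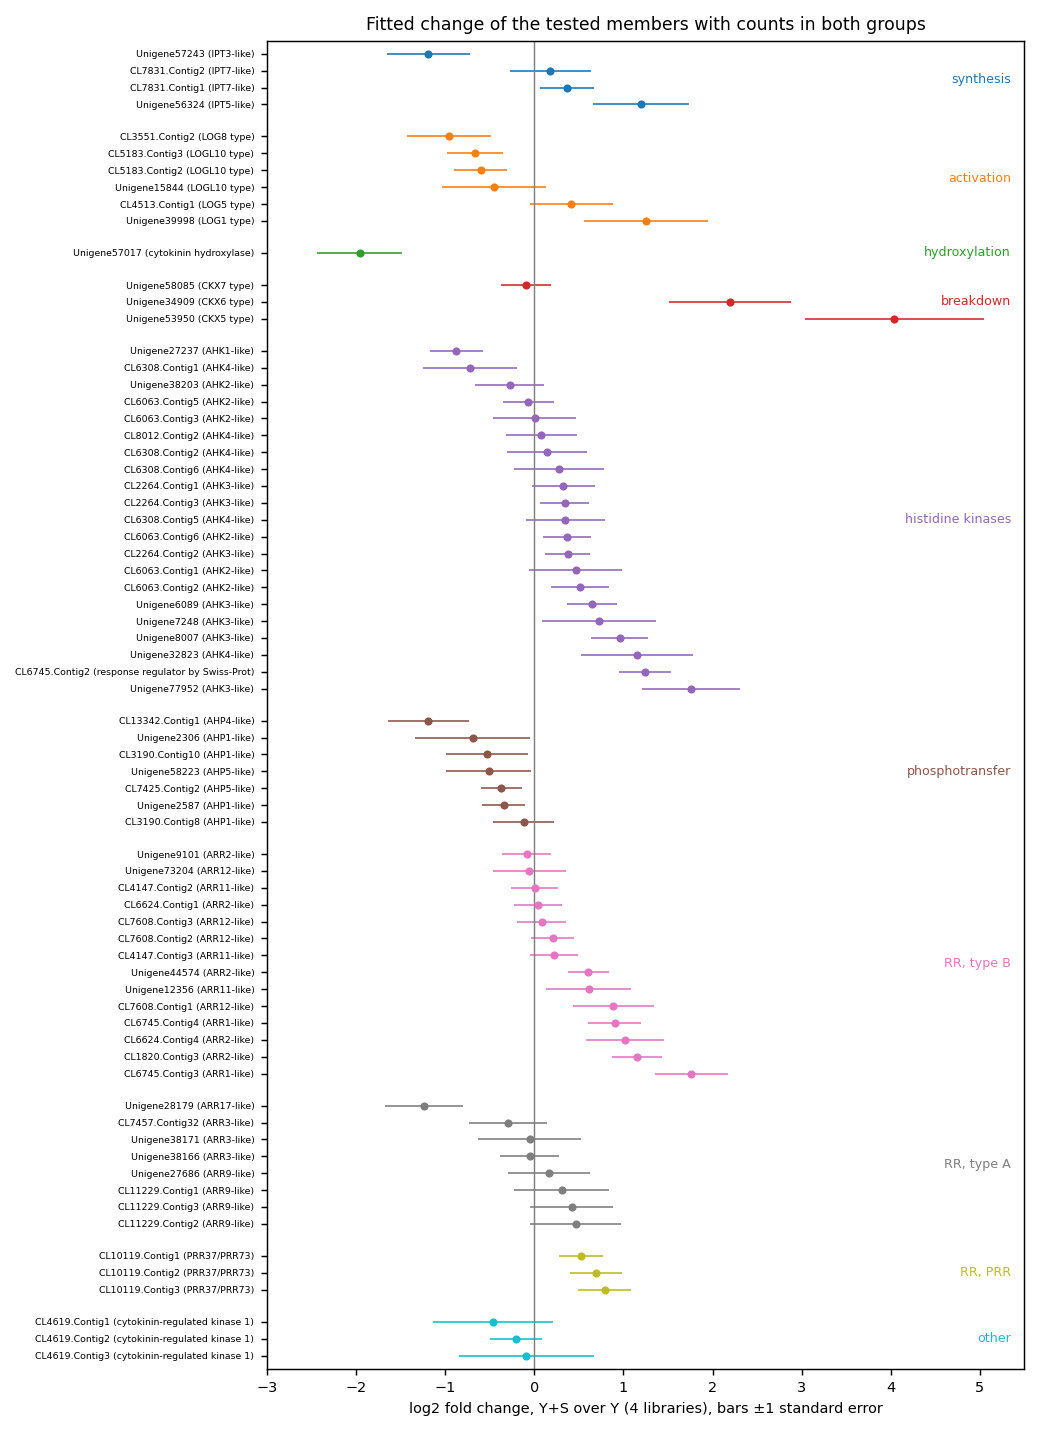
Fitted log2 fold change (Y+S over Y, 4 libraries; x axis) of the tested members that had counts in both groups (y axis), grouped and colored by role. Points are the fits and bars 1 standard error. The CKX unigenes Unigene53950 (4.04) and Unigene34909 (2.20), which passed the filter only through the shaded libraries, lie farthest to the right. The more abundant CKX unigene Unigene58085 lies at -0.09. The hydroxylase lies farthest to the left (-1.96), while most kinases and type-B regulators lie right of 0 and 7 of these phosphotransfer proteins left of it.

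The enzymes of cytokinin metabolism had fold changes of both signs within synthesis, activation and breakdown. The most abundant synthesis gene, Unigene56324, is an IPT5-like enzyme. Libraries are given here and below in the order of their numbers. Its level was 4.41, 4.82 and 4.81 in Y and 17.3, 4.55 and 14.6 in Y+S. Y+S1 and Y+S3 stood well above all sunlit libraries, and Y+S2 lay among them. The fold change was 1.20 ± 0.54 over the 4 libraries (adjusted p = 0.355 by edgeR) and 1.37 ± 0.50 over the 6 (adjusted p = 0.580). Without Y+S1 it was -0.07, and without Y+S2 it was 1.85 with an adjusted p of 5.87e-07.

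Unigene57243, an IPT3-like enzyme of the same step, had 5.95, 2.07 and 2.7 in Y and 1.15, 0.890 and 6.21 in Y+S. Y1 and Y+S3 were the high libraries of both groups, so that the groups overlapped. The fold change of -1.19 ± 0.46 over the 4 libraries (adjusted p = 0.295) became -0.44 ± 0.81 over the 6. The IPT7-like pair matched by Swiss-Prot to PHR1-LIKE 1 gave 0.36 ± 0.30 and 0.18 ± 0.45.

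The hydroxylase turns isopentenyladenine-type nucleotides into trans-zeatin types, the forms that travel from root to shoot in Arabidopsis. Its single unigene, Unigene57017, had 11.4, 3.17 and 3.24 in Y and 0.520, 1.1 and 2.52 in Y+S. All shaded libraries lay below all sunlit ones. The fold change was -1.96 ± 0.48 over the 4 libraries and -2.15 ± 0.76 over the 6 (adjusted p = 0.178 and 0.573), and the likelihood ratio test called it over the 4 (adjusted p = 0.0125).

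Among the LOG enzymes, 6 of 8 were tested, with fold changes from -0.96 to 1.25. The most abundant was CL5183.Contig2, a LOGL10 type, at 5.64, 5.04 and 4.25 in Y and 2.74, 3.31 and 3.68 in Y+S. The groups did not overlap, as was also the case for CL5183.Contig3 of the same cluster, and the fold change was -0.60 ± 0.30 (adjusted p = 0.387). With all contigs of the cluster summed it was -0.65 ± 0.26 over the 4 libraries (adjusted p = 0.316). The LOG1 type Unigene39998, chosen after its values were seen, was in the opposite direction at 1.25 ± 0.70, with 0, 14 and 6 counts in Y and 64, 16 and 11 in Y+S, and was among the calls without Y+S2.

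Of the 5 CKX unigenes, which encode the enzymes that degrade the hormone, 3 were tested. Unigene53950, a CKX5 type of 271 nt, had 0, 1 and 0 counts in Y and 16, 15 and 7 in Y+S, or 0, 0.323 and 0 normalized FPKM against 2.89, 3.23 and 3.40. It passed the filter only through the shaded libraries. The fold change of 4.04 ± 1.01 had an adjusted p of 0.181, and 0.00519 in the likelihood ratio test.

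Unigene34909, a CKX6 type, had 3 counts in each sunlit library and 16, 28 and 31 in the shaded ones, and it too passed the filter only through the shaded libraries. At 0.412, 0.337 and 0.326 against 1.0, 2.09 and 5.23 normalized FPKM, the groups did not overlap. The fold change was 2.20 ± 0.68 over the 4 libraries (adjusted p = 0.226) and 2.86 ± 0.73 over the 6 (adjusted p = 0.512, and between 0.0407 in the likelihood ratio test and 1.0 with a replicate block).

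The CKX7 type Unigene58085 was the most abundant of the group, with 12.6, 24.4 and 28.1 in Y and 29.4, 19.2 and 28.8 in Y+S. Its groups overlapped, with a fold change of -0.09 ± 0.28 (adjusted p = 0.914). The other 2 CKX6 types had 0 to 7 counts a library and were not tested. The single glucosyltransferase had 4 counts, all in Y+S3, and was not tested.

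**Figure D2:**
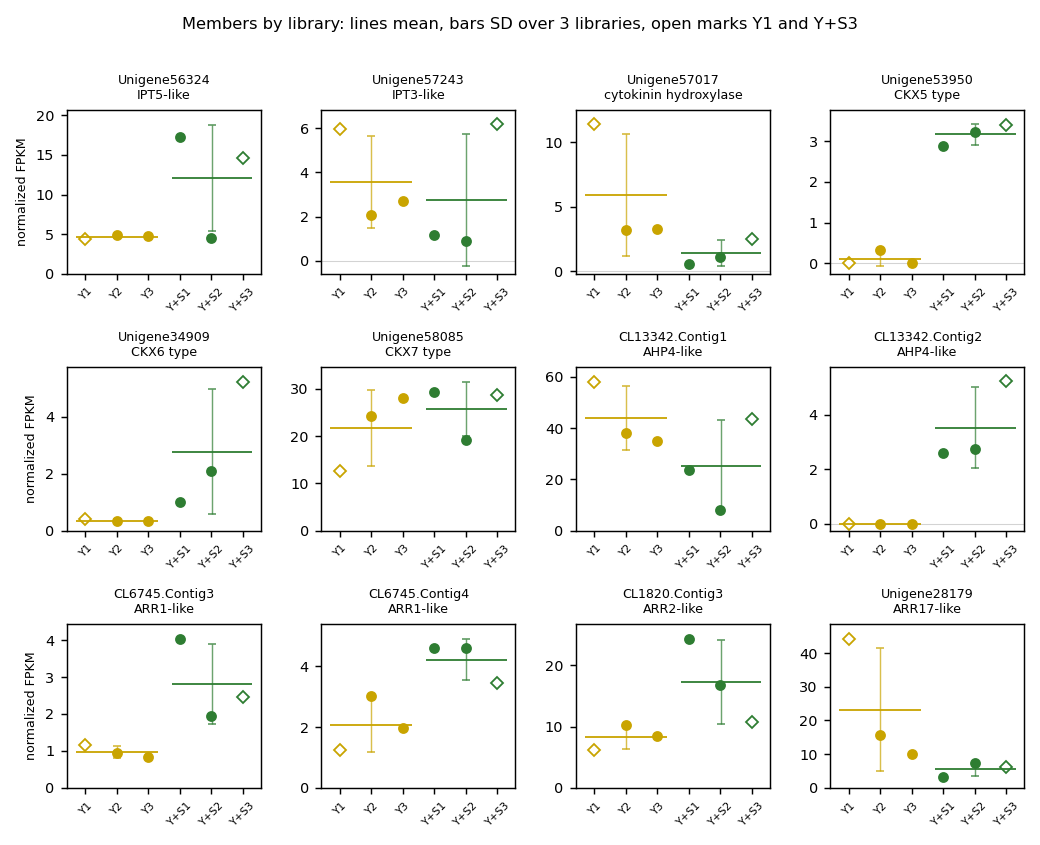
Normalized FPKM (y axes, each with its own scale) of 12 members in each library (x axes), with the mean of each group as a line and the SD over 3 libraries as a bar. CKX unigenes Unigene53950 and Unigene34909 were near 0 in every sunlit library, CL13342.Contig2 was at 0 there, and the hydroxylase and ARR17-like Unigene28179 were lower in every shaded library than in any sunlit one.

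The receptor types AHK2, AHK3 and AHK4 had 23 unigenes, and none was called. Over the 4 libraries 19 were tested, 16 with a fold change above 0 and 3 below, with a median of 0.35. Of all unigenes 51.9% were above 0. With 6 libraries 18 were tested, 12 above 0 and 6 below, with a median of 0.09. Many of these receptors were contigs of CL2264, CL6063 and CL6308, whose sums gave 0.39 ± 0.25, 0.33 ± 0.25 and 0.16 ± 0.30 over the 4 libraries. There, Unigene77952 and the AHK4-like Unigene32823 (1.15 ± 0.63) passed the filter only through the shaded libraries. The whole class of 30 histidine kinases, which also holds AHK1-like and AHK5-like unigenes and both unigenes matched to response regulators, had 21 tested, 17 above 0 and 4 below, with a median of 0.35 over the 4 libraries. All 7 AHK3-like unigenes, named after the receptor that acts in Arabidopsis leaf senescence, were above 0 in the 4 libraries, from 0.32 to 1.76, the last being a fragment that passed the filter only through the shaded libraries. The most abundant receptor, CL2264.Contig2, had 7.22, 7.94 and 8.37 in Y and 12.1, 8.79 and 4.64 in Y+S. Y+S3 was the lowest library of all and Y+S1 the highest, and the fold change was 0.37 ± 0.25 (adjusted p = 0.534).

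Unigene8007, an AHK3-like unigene, had 3.49, 2.85 and 3.23 in Y and 6.75, 4.91 and 2.96 in Y+S. Only Y+S1 and Y+S2 were above the sunlit range, and the fold change was 0.96 ± 0.32 over the 4 libraries and 0.62 ± 0.42 over the 6 (adjusted p = 0.247 and 0.696, and 0.0311 over the 4 without Y+S2). Unigene77952, an AHK3-like fragment of 220 nt, had 0, 5 and 4 counts in Y and 31, 19 and 2 in Y+S, a fold change of 1.76 ± 0.55 (adjusted p = 0.227), and was that fragment. Summed over the 7 unigenes, normalized CPM were 41.0, 46.3 and 48.2 in Y and 73.6, 55 and 32.2 in Y+S.

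The AHK2-like sum was 21.1, 21.5 and 29.4 in Y and 30.3, 26.9 and 9.60 in Y+S, and the AHK4-like sum 12, 11.3 and 9.90 against 9.77, 14.2 and 4.21. Y+S3 was the lowest library for all 3 receptor types. The receptors hold long transcripts, up to 5514 nt. The 8 members of at least 3000 nt together had 85.0, 110 and 110 normalized CPM in Y and 212, 155 and 87.1 in Y+S. They include CL1820.Contig3 (ARR2-like, 5374 nt), which is not a receptor. Among these 8 it had the highest normalized FPKM in each shaded library (24.3, 16.8 and 10.7). Y1 and Y+S3, which had a low share of long unigenes, were the lowest of their groups in the sum of these 8. The same held for the AHK2-like and AHK3-like sums, although Y1 (21.1) was close to Y2 (21.5) for AHK2. In the AHK4-like sum Y+S3 was the lowest of its group and Y1 the highest. Y+S1 and Y+S2 had a higher share of long unigenes than Y2 and Y3. The part of these shares in the sums and in the fold changes of long members was not tested.

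The osmosensor-type kinase AHK1, which acts in drought and osmotic responses in Arabidopsis and does not bind cytokinin, went the other way. Unigene27237 had 3.58, 3.32 and 3.97 in Y and 1.82, 2.1 and 1.44 in Y+S. The groups did not overlap, and their means were 3.62 ± 0.328 and 1.79 ± 0.332 (SD, n = 3). The fold change was -0.88 ± 0.30 over the 4 libraries and -1.01 ± 0.35 over the 6 (adjusted p = 0.249 and 0.570).

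Phosphotransfer proteins were few in number of usable unigenes. Of 23 unigenes 8 were tested, 7 with a fold change below 0. The most abundant, CL7425.Contig2 (AHP5-like), had 67.9, 60.8 and 56.8 in Y and 42.3, 47.4 and 107 in Y+S. Y+S1 and Y+S2 lay below the sunlit libraries and Y+S3 above them, so that the fold change was -0.37 ± 0.23 over the 4 libraries and 0.09 ± 0.43 over the 6. Unigene2306, an AHP1-like fragment chosen after its values were seen, had 40.4 in Y1 and 1.03 to 4.51 in the other libraries. Its fold change of -2.72 ± 1.03 over the 6 libraries was -0.69 ± 0.64 over the 4.

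The AHP4-like cluster CL13342 held 2 contigs that differed in direction. CL13342.Contig2 had no count in any sunlit library and 28, 25 and 21 in the shaded ones. Taking 3 counts over the sunlit group as the limit that a count of 0 allows, it was at least 17.8-fold higher in Y+S. It passed the filter only through the shaded libraries, and its adjusted p was 0.114 over the 4 libraries and 0.485 over the 6 in the quasi-likelihood test, against 0.000393 in DESeq2 over the 6 and 1.80e-06 in the likelihood ratio test over the 4.

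CL13342.Contig1, chosen after its values were seen, was the more abundant contig, with 58.1, 38.2 and 35.2 in Y and 23.6, 8.12 and 43.8 in Y+S, a fold change of -1.19 ± 0.45 (adjusted p = 0.287). Y+S3 overlapped the sunlit range, and the contig was called without Y+S1. With both contigs summed, the normalized CPM were 27.2, 18.4 and 16.9 in Y and 13.1, 5.32 and 23.1 in Y+S, a fold change of -0.91 ± 0.41 (adjusted p = 0.357). How much sequence the contigs share was not checked. Fragments that match both would be left out of the authors' count of unique alignments. The values of the single contigs and of their sum are therefore uncertain in this respect. In Arabidopsis, AHP4 has a less clear part in cytokinin signaling than the other AHPs with the conserved histidine.

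In AHP1-like unigenes, 11 had counts in Y2, Y3 and Y+S1 and none in Y1, Y+S2 and Y+S3. They were 9 contigs of CL3190 and 2 single unigenes, and none passed the filter. Single values ran from 1 to 11 counts, and the 11 together had 0, 18 and 49 counts in Y and 51, 0 and 0 in Y+S. The same pattern was present in 507 of all unigenes (0.398%). It crossed the groups, with 1 shaded library on the side of the sunlit pair.

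**Figure D3:**
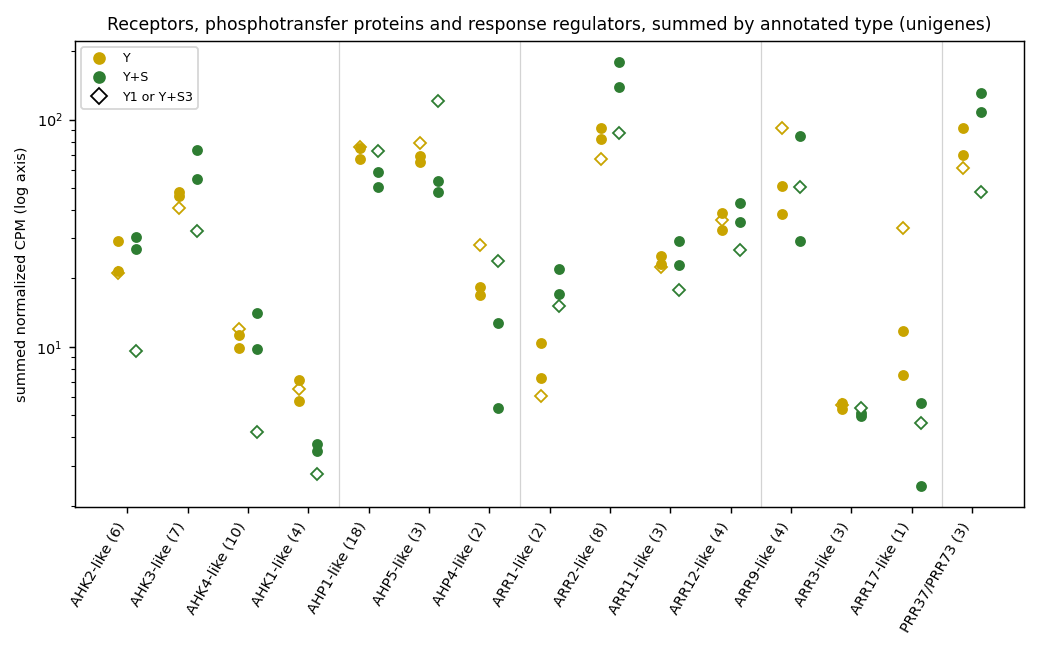
Summed normalized CPM (log axis) of the unigenes of each annotated type (x axis, number of unigenes in parentheses), 1 mark per library, with Y in yellow, Y+S in green and open diamonds for Y1 and Y+S3. ARR1-like sums were higher in each shaded library than in any sunlit one and AHK1-like and ARR17-like sums were lower, while Y+S3 lay below the other shaded libraries for AHK2-like, AHK3-like and AHK4-like receptors.

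Type-B response regulators, the transcription factors at the end of the relay, held 5 of the 13 members that were higher at an unadjusted p under 0.05. Of 17 unigenes 14 were tested, with 12 fold changes above 0, 2 below and a median of 0.41 over the 4 libraries and 0.30 over the 6. None was lower at that p, and 5 of the 14 tested were higher, where 7.23% of all unigenes were. These 5 were 2 contigs of CL6745, CL1820.Contig3, Unigene44574 and CL6624.Contig4, a fragment of 212 nt with a fold change of 1.02, for which the sum of its cluster gave 0.06 ± 0.24 (adjusted p = 0.939). With the contigs of each cluster summed, CL6745, CL1820 and Unigene44574 were higher at an unadjusted p under 0.05, and CL6624 was not. With each cluster counted once the median of 9 unigenes was 0.21.

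The cluster CL6745 carried the largest of these differences. ARR1-like CL6745.Contig3 had 1.15, 0.943 and 0.841 in Y and 4.03, 1.96 and 2.45 in Y+S. All shaded libraries were higher, and the fold change was 1.76 ± 0.41 over the 4 libraries and 1.52 ± 0.41 over the 6 (adjusted p = 0.167 and 0.512, and 0.0428 in DESeq2 over the 4). CL6745.Contig4 had 1.24, 3.04 and 1.96 in Y and 4.61, 4.61 and 3.44 in Y+S, again without overlap, a fold change of 0.90 ± 0.30 (adjusted p = 0.239).

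CL6745.Contig2, listed by Nr as a sensor kinase and by Swiss-Prot as ARR2, had 0.527, 1.56 and 1.15 in Y and 3.33, 3.0 and 1.40 in Y+S. Y+S3 overlapped the sunlit range, and the fold change was 1.24 ± 0.29 (adjusted p = 0.171). Summed over the 4 contigs of the cluster, of which 3 are members, the normalized CPM were 8.34, 16.5 and 11 in Y and 33.4, 26.8 and 19.9 in Y+S. The groups did not overlap, and the fold change of the sum was 1.15 ± 0.28 over the 4 libraries and 1.16 ± 0.37 over the 6 (adjusted p = 0.197 and 0.570).

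CL1820.Contig3, ARR2-like by Nr and of 5374 nt, had 6.22, 10.2 and 8.52 in Y and 24.3, 16.8 and 10.7 in Y+S. The groups lay apart with Y+S3 just above Y2, and the fold change was 1.15 ± 0.28 over the 4 libraries and 1.06 ± 0.41 over the 6 (adjusted p = 0.174 and 0.598, and 0.0396 in DESeq2 over the 4). Summed over the 4 contigs of its cluster, of which 1 is a member, the normalized CPM were 39.9, 61.3 and 55.8 in Y. In Y+S they were 146, 101 and 60.3, so that Y+S3 lay below Y2 and the groups overlapped. Since Swiss-Prot named another enzyme for this unigene, its place in the relay rests on the Nr name. ARR11-like and ARR12-like sums overlapped between the groups, with 22.5 to 25.1 against 17.8 to 29.3 and 32.7 to 38.8 against 26.7 to 43.1 normalized CPM.

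Type-A response regulators, which many studies use as readouts of cytokinin signaling, had no common direction. All 8 were tested, 4 on each side of 0, with a median of 0.05 over the 4 libraries and -0.45 over the 7 tested in the 6. ARR17-like Unigene28179 had 44.2, 15.6 and 9.99 in Y and 3.24, 7.50 and 6.11 in Y+S. All shaded libraries were lower than all sunlit ones, and Y1 was far above the rest. The fold change was -1.24 ± 0.44 over the 4 libraries and -2.05 ± 0.63 over the 6 (adjusted p = 0.262 and 0.533), and without Y+S2 it was -1.97 with an adjusted p of 4.02e-05.

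The ARR9-like unigenes were the most abundant of the type. CL11229.Contig3 had 34.8, 15.7 and 18.9 in Y and 11.6, 34.1 and 24.6 in Y+S. The libraries of each group were spread over the same range, with Y+S1 lowest and Y1 and Y+S2 highest. The fold change was 0.42 ± 0.46 (adjusted p = 0.725), 0.98 without Y+S1 (adjusted p = 0.0225) and -0.57 without Y+S2. The ARR3-like sum was 5.34 to 5.67 normalized CPM in Y and 4.94 to 5.39 in Y+S.

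The clock-like contigs of CL10119 had fold changes of 0.52 to 0.79 over the 4 libraries, the last of them for CL10119.Contig3. Their sum was 61.0, 69.7 and 92.0 normalized CPM in Y and 131, 108 and 48.1 in Y+S, so that Y+S3 was the lowest library. The most abundant cytokinin-regulated kinase contig, CL4619.Contig2, had 7.23, 4.98 and 3.69 in Y and 4.23, 3.19 and 9.16 in Y+S. The groups overlapped, and the fold change was -0.21 ± 0.29 (adjusted p = 0.792).

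Y1 and Y+S3, left out of the 4-library comparison, gave a view of its members in other libraries. Of the 13 members higher at an unadjusted p under 0.05, 11 were higher in Y+S3 than in Y1 (84.6%, against 67.7% of the 4650 such unigenes), and of the 5 lower members 4 were lower (80.0%, against 81.8% of 4943). With 1 library a group this was not tested. Unigene53950, Unigene34909, CL13342.Contig2 and Unigene77952, which passed the filter only through the shaded libraries, had 0, 3, 0 and 0 counts in Y1. At or near 0 there, they could hardly be lower in Y+S3. The 3 members of CL6745 were also among the 13, so these were not all separate loci. On the deposited FPKM the shares were 11 of 13 (against 63.6%) and 5 of 5 (against 85.3%).

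Genes that act around the pathway were listed by name as well, and gave 73 unigenes that were not members. Over the 4 libraries 40 were tested and 0 called by edgeR, with 0 higher and 2 lower (5% of those tested, against 7.69% of all unigenes) at an unadjusted p under 0.05. Over the 6 libraries 36 were tested and 0 called, with 0 higher and 6 lower (16.7%, against 3.67% of all). These 6 included the GATA factor and 3 of the 4 unigenes named as cytokinin response factors (CRFs), transcription factors of which several are induced by cytokinin in Arabidopsis. Neither DESeq2 nor the likelihood ratio test called any of them in either comparison.

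GATA22, a factor that promotes chlorophyll synthesis and chloroplast growth in Arabidopsis and responds to cytokinin there, was represented by Unigene34486. Its level was 139, 84.6 and 101 in Y and 45.9, 59.2 and 50.5 in Y+S, with means of 108 ± 27.8 and 51.9 ± 6.76 (SD, n = 3). All shaded libraries were lower, and the fold change was -0.80 ± 0.26 over the 4 libraries and -1.06 ± 0.34 over the 6 (adjusted p = 0.233 and 0.543, and 0.0337 over the 4 without Y+S2).

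The CRF4 unigene Unigene46737 had 6.96, 5.34 and 4.47 in Y and 1.99, 1.18 and 3.21 in Y+S, from 16, 15 and 13 and from 10, 5 and 6 counts. CRF4-like Unigene39610 had 7.33, 4.90 and 5.09 in Y and 3.04, 2.06 and 3.28 in Y+S. CRF2 (Unigene56406, chosen after its values were seen) had 4.56, 5.05 and 3.02 in Y and 2.35, 2.36 and 1.90 in Y+S. For all 3 the groups did not overlap, with fold changes of -1.57 ± 0.56, -0.94 ± 0.41 and -0.76 ± 0.34 over the 4 libraries (adjusted p = 0.263, 0.340 and 0.350). The most abundant CRF unigene, Unigene50544 (CRF4), overlapped, with 6.98, 4.41 and 1.96 against 2.43, 2.90 and 12.6. Its fold change was -0.24 ± 0.41 over the 4 libraries and 0.41 ± 0.73 over the 6. It had 1687 nt, while Unigene46737 and Unigene39610 were fragments of 246 and 482 nt. Whether these unigenes named CRF4 belong to the same gene was not checked.

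**Figure D4:**
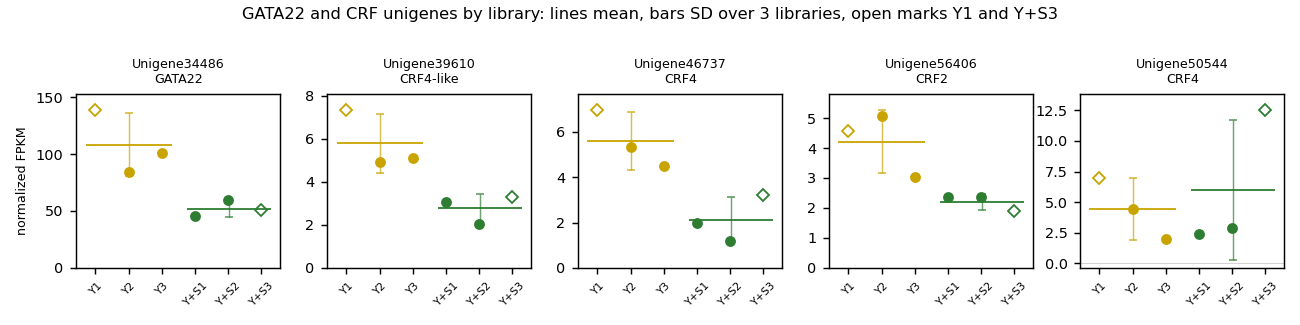
Normalized FPKM (y axes, each with its own scale) of the GATA22 unigene and the 4 CRF unigenes in each library (x axes), with the group mean as a line and the SD over 3 libraries as a bar. The GATA22 unigene lay between 45.9 and 59.2 in Y+S and between 84.6 and 139 in Y; 3 CRF unigenes were also lower in each shaded library, and Unigene50544 overlapped.

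Zeatin O-glucosyltransferases, which store the hormone as a glucoside, gave 1 fold change above 0 and 4 below among 5 tested. CL5853.Contig9 had 4.08, 6.17 and 5.64 in Y and 2.56, 4.33 and 1.5 in Y+S (-0.76 ± 0.34, adjusted p = 0.349, and 0.0313 without Y+S2), and the most abundant, Unigene6575, had 12.5, 15.3 and 12.4 in Y and 17, 14.9 and 69.3 in Y+S (0.22 ± 0.25). The groups of both overlapped, and the value of Y+S3 was the highest of Unigene6575. Adenine phosphoribosyltransferases, which can turn cytokinin bases into nucleotides, had 2 of 8 above 0, and their most abundant unigene, Unigene27800, had a fold change of 0.03 ± 0.24. In this group CL5034.Contig1, CL5034.Contig2, CL5034.Contig3 and Unigene67846 were lower in each shaded library than in any sunlit one. Candidate transporters had 5 of 11 above 0 among equilibrative nucleoside transporters, led in level by CL10253.Contig2 (0.40 ± 0.26), and 5 of 7 among purine permeases, led by Unigene20902 (0.28 ± 0.49). Of the nucleoside transporters, CL10253.Contig1, CL10253.Contig2 and Unigene8810 were higher in each shaded library than in any sunlit one, and CL12723.Contig1 was lower. Of all unigenes 6.67% were higher without overlap and 7.28% lower. The tRNA isopentenyltransferase Unigene39502, of the cis-zeatin route, gave 0.20 ± 0.33, and the adenosine kinase Unigene29019 gave 0.13 ± 0.50.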

How the data were processed

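RNA-seq was done by the study on stranded libraries of 3 sunlit and 3 shaded leaf samples. The authors assembled the clean reads de novo (Trinity, then TGICL and Phrap) and annotated the unigenes by Blast. They deposited, for each unigene and library, the raw count of uniquely aligned fragments and the FPKM. The aligner and the use of strand in counting are not given in the sources used here.

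Members were found by words in the Nr names. The members, role classes and lists were chosen with earlier results of these data known. After filterByExpr and TMM scaling, counts entered the quasi-likelihood test in edgeR 4.0.16 (R 4.3.3) over all unigenes, with Benjamini-Hochberg adjustment and a call at an adjusted p of 0.05. Standard errors were derived from the F statistic. The script was tested on simulated data. Alternatives used DESeq2 1.42.0, the likelihood ratio test, limma 3.58.1 on log2 of FPKM with pseudocounts of 0.1, 0.5 and 1, other scalings, no filter, left-out libraries, the threshold of the study and a replicate block. Cluster sums and the look at Y1 and Y+S3 were added after seeing the data. The limit for unigenes without counts was set at 3 counts and covers counting error only. Named unigenes had the lowest p (12 over 4 libraries, 6 over 6), the largest fold changes (3 in each direction) or the highest level in their class, and the others were among the 4 of lowest p or the highest of their group. Other contigs of a named cluster and unigenes named for their annotation or for groups without overlap were added after their values were seen. Unigene sequences were not used here.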

Additional observations from a re-analysis of the deposited data

How the results depend on the processing

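Depth limited 33 of the 104 members, which had too few counts to be tested over the 4 libraries, and the lone library of an arm in each fit that left out 1 of the 4 was assumed to vary like the other arm. The number of members called over the 4 libraries, 0, was 2 with DESeq2, 6 with the likelihood ratio test and 1 with no filter, and 0 to 10 with a library left out (6 without Y+S1, 10 without Y+S2). Over the 6 libraries it was 1 with DESeq2 and 2 with the likelihood ratio test, and the other alternatives, the threshold of the study included, kept it at 0 in both comparisons. Of the other pathway genes 0 were called in every alternative that kept at least 2 libraries a group. Calls among them came only without Y+S2, where the shaded arm held 1 library. The number of members without overlap, 16, was 10 (4 higher, 6 lower) with library size alone and on the deposited FPKM. These 10 were 14.7% of the members tested, against 11.8% of all unigenes with library size alone and 11.9% on the deposited FPKM. Over the 6 libraries the class median was -0.13 for activation, 1.55 for breakdown, -0.30 for phosphotransfer proteins, 0.088 for kinases and 0.30 for type-B regulators. The value for breakdown rests on 2 unigenes, Unigene34909 (2.86), which passed the filter only through the shaded libraries, and Unigene58085 (0.25). Over the 4 libraries with each cluster counted once it was -0.36 for phosphotransfer proteins, 0.51 for kinases and 0.21 for type-B regulators. With a library of the 4 left out the median ran from 0.17 to 2.62 for breakdown, -2.59 to -1.51 for hydroxylation, -1.77 to 0.18 for the cytokinin-regulated kinases, -0.51 to -0.39 for phosphotransfer proteins, 0.33 to 0.55 for kinases, 0.28 to 0.45 for type-B regulators and -0.13 to 0.54 for synthesis. For breakdown these fits tested 3 unigenes, except for 1 unigene without Y+S2, which gave the 0.17.

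The cause of these changes was not tested. Of 304 values of 31 named unigenes under the alternatives, 270 kept their direction and their side of the threshold, 15 passed it and 19 changed sign, and 22 unigenes never changed sign. Over the 6 libraries the sign changed for CL4619.Contig2 (0.054), CL7425.Contig2 (0.085), Unigene58085 (0.25), Unigene29019 (-0.39) and Unigene50544 (0.41). With a library of the 4 left out the ranges were -0.57 to 0.98 (CL11229.Contig3), -0.45 to 0.025 (CL4619.Contig2), -0.075 to 1.85 (Unigene56324), -0.44 to 0.17 (Unigene58085), -0.36 to 1.29 (Unigene20902), -0.11 to 0.13 (Unigene27800), -0.27 to 0.42 (Unigene29019) and -0.76 to 0.46 (Unigene50544).

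The paper does not say that libraries of the same number were paired. The deviations of Y1 and Y+S1, of Y2 and Y+S2 and of Y3 and Y+S3 correlated at -0.37, 0.01 and -0.48. Other pairs ran from -0.29 (Y1 and Y+S2) to 0.42 (Y1 and Y+S3). With 3 libraries a group these values cannot show whether the libraries were paired. With a replicate block over the 6 libraries 0 of 68 members and 0 of 59300 unigenes were called. At an unadjusted p under 0.05, 3 of the 68 members were higher and 0 lower, against 1358 and 934 of the 59300 unigenes. Under the block the fold change was -0.0021 for CL11229.Contig3, 0.29 for Unigene58085, -0.60 for Unigene29019 and 0.058 for Unigene50544. No block was possible over the 4 libraries, where the groups share 1 number.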
